A study of Tursiops truncatus with 76 samples.

Results

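Glutathione and the enzymes that use it form a main defense of blood cells against peroxides. Transcripts of 4 genes of this system, located among the 24094 loci of a blood transcriptome of common bottlenose dolphins (Tursiops truncatus), are described here, namely GPX1, GSR, GSTM3 and GCLM. They are the 4 loci whose position the supplementary gene tables of the study pair with these symbols. Those tables list genes that the study grouped by co-expression or called different in these same samples. Levels thus bore on which loci could be named. The study placed GPX1, GSTM3 and GCLM in the same group of co-expressed genes in BAR samples, and GSR in another. GSTM3 is also in the list of genes that the study called different between sites in these same samples, so its difference between sites below is not independent evidence of that list.

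The blood came from 71 wild dolphins handled in health assessments after the Deepwater Horizon oil spill, and 76 samples were sequenced. Barataria Bay, Louisiana (BAR), in the area oiled by the spill, contributed 60 samples, 12 of them from each of 5 collections (June of 2013, of 2014 and of 2017, September 2017, and July 2018). Sarasota Bay, Florida (SAR), a bay without substantial oil from the spill, contributed 16 samples, 8 from May 2016 and 8 from May 2014. BAR samples comprised 40 of females and 20 of males, SAR samples 8 of each sex, and 5 BAR animals were sampled on 2 dates. No treatment was given, and all groups are free-living animals. BAR samples comprised 4 of calves, 33 of subadults and 23 of adults, SAR samples 0, 5 and 11. Age thus differed between the bays, and no fit adjusted for it. The bay, the month of collection and the years cannot be told apart except that both bays were sampled in 2014. Age class, birth cohort, pregnancy and clinical findings were taken from the table of animals in the study.

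Glutathione peroxidase 1, encoded by GPX1, is a selenoenzyme that reduces hydrogen peroxide and organic peroxides with glutathione, which is oxidized to its disulfide. Glutathione reductase (GSR) turns the disulfide back to glutathione with NADPH from the pentose phosphate pathway. GCLM is the modifier subunit of glutamate-cysteine ligase, the rate-limiting enzyme of glutathione synthesis, and GSTM3 is a mu-class transferase that joins glutathione to electrophiles. In mammalian blood, red cells carry a large share of this system because they bind oxygen and hold heme iron.

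In the Tur_tru v1 assembly, the GPX1 locus lies on scaffold NW_017842956.1 from 452238 to 453444, and the GSR locus on scaffold NW_017844527.1 from 22396026 to 22439923. GSTM3 and GCLM share scaffold NW_017844458.1, at 13685880 to 13689092 and at 26613577 to 26632881. None of these loci overlaps another in the table. Exons and untranslated regions were not annotated in the sources used here. GPX1 and the mu-class transferases have close copies in mammalian genomes, so reads of such copies may be counted with these loci.

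Levels are given as FPKM as deposited, a count of sequenced fragments divided by transcript length and by the number of mapped fragments in the library. GPX1 was among the most abundant transcripts of dolphin blood. Its FPKM ranged from 7904 to 53863 with a median of 16473 over the 76 samples, and its mean level ranked 5 among 11485 expressed loci. It made up 1.80% ± 0.59 (SD, n = 76) of the summed FPKM of a library. Hemoglobin sequences had been masked before these values were made, so the rank and the share are among the remaining transcripts.

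GSR, GSTM3 and GCLM were moderately expressed. GSR had a median of 83.3 FPKM (lowest 39.8, highest 156.5), GSTM3 of 43.7 FPKM (lowest 7.24, highest 167.7) and GCLM of 26.4 FPKM (lowest 9.29, highest 57.6). GPX1 was above the other members in all 76 samples, GSR was above GSTM3 in 60 and above GCLM in 74, and GSTM3 was above GCLM in 61. None of the members was at 0 in any sample. GSTM3 varied most, with a 23.2-fold range and a coefficient of variation of 70.9%, against 38.4% for GPX1, 40.9% for GCLM and 31.7% for GSR.

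**Figure D1:**
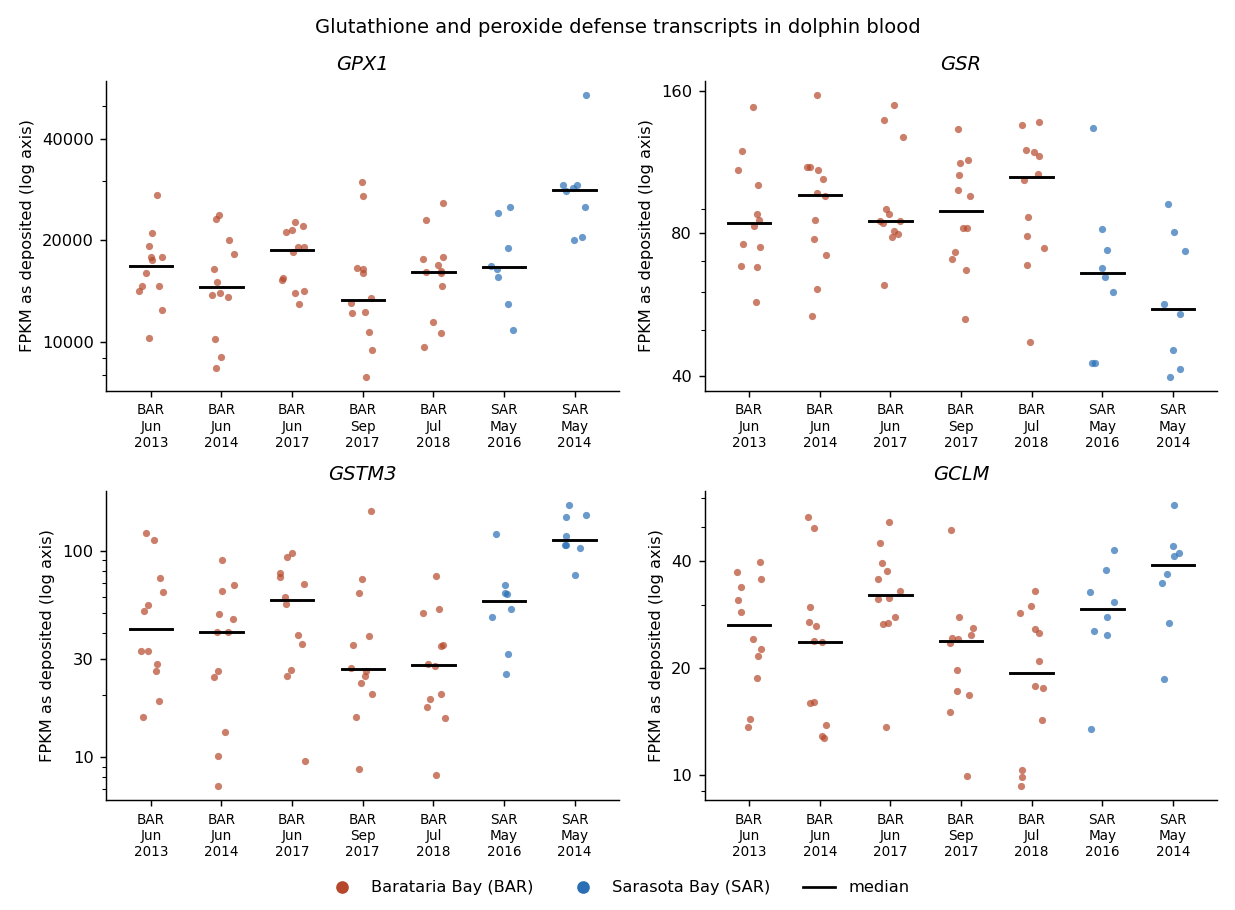
FPKM as deposited (log axis) of each gene in every sample, by collection, with BAR and SAR in separate colors and a line at each median. SAR May 2014 has the highest median of GPX1 (28267), GSTM3 (112.9) and GCLM (39.1) and the lowest of GSR (55.4).

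Over the collections, GPX1 had medians of 16775 FPKM in BAR June 2013, 14555 in BAR June 2014, 18776 in BAR June 2017, 13312 in BAR September 2017 and 16156 in BAR July 2018, against 16650 in SAR May 2016 and 28267 in SAR May 2014. The median of SAR May 2014 was the highest, but its range (19998 to 53863) overlapped those of the other 6 collections, as theirs did each other. For GSTM3 the medians were 41.9, 40.5, 57.5, 26.6 and 28.0 FPKM in the same 5 BAR collections, against 57.134 in SAR May 2016 and 112.9 in SAR May 2014. Collections adjacent in the order of these medians had overlapping ranges, including SAR May 2014 (76.3 to 167.7) and BAR June 2017 (9.59 to 97.98). The range of BAR July 2018 (8.22 to 75.9) lay below that of SAR May 2014.

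GCLM followed the same order at its top, with medians of 26.4, 23.7, 32.1, 23.8 and 19.4 FPKM in the 5 BAR collections, against 29.3 in SAR May 2016 and 39.1 in SAR May 2014. GSR ran the other way. Its medians were 84.1, 96.4, 84.9, 89.1 and 105.2 FPKM in the 5 BAR collections, against 66.03 in SAR May 2016 and 55.4 in SAR May 2014, and the ranges of all 7 collections overlapped.

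The central comparison of the study was between the bays. In BAR blood, transcripts of the peroxidase GPX1, the transferase GSTM3 and the synthesis subunit GCLM were lower than in SAR blood, and those of the reductase GSR were higher. GPX1 had a lowest value of 7904, a median of 16065 and a highest value of 29801 FPKM in the 60 BAR samples, against 10849, 22258 and 53863 FPKM in the 16 SAR samples. The ranges overlapped, and 52 of 60 BAR samples were below the SAR median. GPX1 differed by -0.47 ± 0.13 on the log2(FPKM + 1) scale (BAR minus SAR, SE), with an adjusted p of 0.00184 from limma over 11485 loci.

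GSTM3 showed the largest difference of the members. It had a lowest value of 7.24, a median of 34.9 and a highest value of 155.4 FPKM in BAR, against 25.3, 90.0 and 167.7 FPKM in SAR. Of the BAR samples, 54 lay below the SAR median and 18 below the lowest SAR sample. The log2 difference was -1.14 ± 0.26 (limma adjusted p = 0.000212).

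GCLM had a lowest value of 9.29, a median of 24.9 and a highest value of 53.2 FPKM in BAR, against 13.5, 33.7 and 57.6 FPKM in SAR. The groups overlapped over most of their range, with 48 of 60 BAR samples below the SAR median, and the log2 difference was -0.41 ± 0.16 (limma adjusted p = 0.0187). GSR had a lowest value of 47.08, a median of 87.1 and a highest value of 156.5 FPKM in BAR, against 39.8, 62.3 and 133.4 FPKM in SAR. Here 54 of 60 BAR samples lay above the SAR median, and the log2 difference was 0.54 ± 0.12 (limma adjusted p = 0.000120).

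A shift of all loci bears on these values. As deposited, the median locus was 0.39 log2 units higher in BAR, and 73% of loci passed the threshold, an adjusted p of at most 0.05. Higher calls made up 70.4% of loci and lower calls 2.54%, so GSR moved with the bulk of the transcriptome while GPX1, GSTM3 and GCLM were among the few that went down. After scaling each library by its median ratio to the average library, 7.84% of loci were called, 5.65% of all loci being lower, and the median locus differed by 0.01. GPX1 (-0.92 ± 0.17), GSTM3 (-1.58 ± 0.29) and GCLM (-0.85 ± 0.18) were still called lower in BAR, at limma adjusted p of 6.23e-05, 7.92e-05 and 0.000624. GSR was no longer called (0.09 ± 0.10, limma adjusted p = 0.661).

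Quantile normalization left GSTM3 and GCLM called but not GPX1 (-0.05, adjusted p = 0.872) or GSR (0.21, adjusted p = 0.172). With it 7.2% of all loci were called, 468 lower and 359 higher. That method gives the same value to the same rank in each library, so a transcript near the top of every library, as GPX1 is, can hardly differ.

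Both bays were sampled in 2014, in May at SAR and in June at BAR, and all 4 members passed the threshold in that year. GSTM3 had a lowest value of 7.24, a median of 40.5 and a highest value of 90.5 FPKM in the 12 BAR samples, against 76.3, 112.9 and 167.7 FPKM in the 8 SAR samples. In 11 of 12 BAR samples GSTM3 was below the lowest SAR sample, and the log2 difference was -1.87 ± 0.37 (limma adjusted p = 0.000184). GPX1 had a lowest value of 8398, a median of 14555 and a highest value of 23729 FPKM in BAR, against 19998, 28267 and 53863 FPKM in SAR. Of the 12 BAR values of GPX1, 9 were below the lowest SAR value, for a log2 difference of -0.93 ± 0.23 (limma adjusted p = 0.00122).

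In the same year GCLM had a median of 23.7 FPKM in BAR (12.7 to 53.2), against 39.1 FPKM in SAR (18.6 to 57.6). Its log2 difference of -0.64 ± 0.26 passed the threshold (limma adjusted p = 0.0297) but lost the call when SAR May 2014 replicate 2, 6, 7 or 8 was left out (adjusted p up to 0.0699). GSR had a median of 96.4 FPKM in BAR (53.6 to 156.5), against 55.4 FPKM in SAR (39.8 to 92.3), a log2 difference of 0.64 ± 0.19 (limma adjusted p = 0.00553). As deposited, 72.6% of loci were called in 2014, 70.1% higher and 2.58% lower, and the median locus differed by 0.67.

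With median-ratio scaling, 10.8% of loci were called in 2014 and 7.24% were called lower. GPX1 (-1.70 ± 0.28), GSTM3 (-2.63 ± 0.39) and GCLM (-1.39 ± 0.29) remained past the threshold, with limma adjusted p of 0.000310, 0.000181 and 0.00239. GSR changed sign and was not called (-0.12 ± 0.16, limma adjusted p = 0.677).

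**Figure D2:**
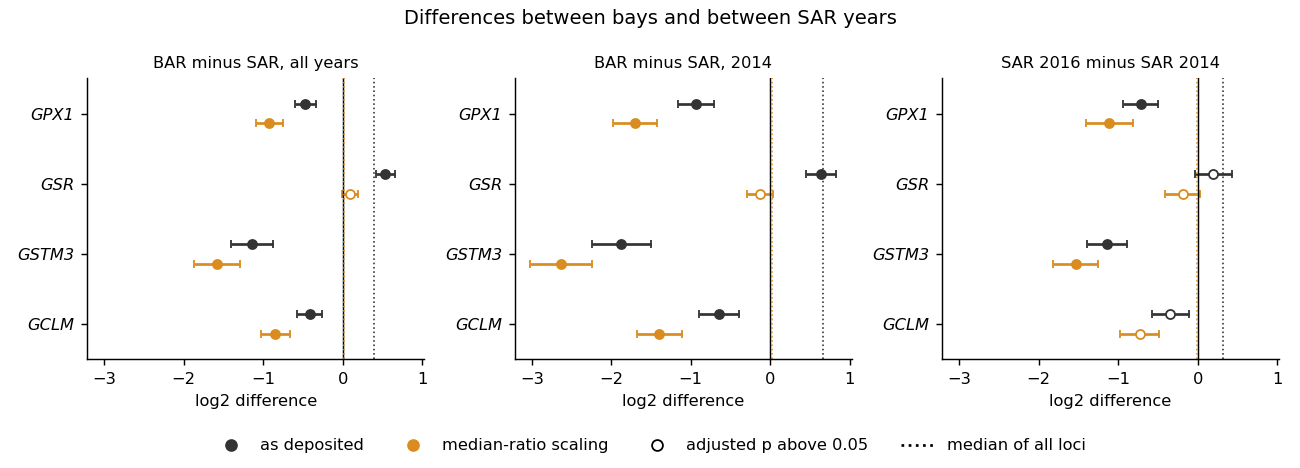
Log2 differences of the 4 genes (points, with bars of 1 SE) for BAR minus SAR over all years, BAR minus SAR in 2014 and SAR 2016 minus SAR 2014, as deposited and after median-ratio scaling. Open points have an adjusted p above 0.05 and dotted lines mark the median locus. GPX1 and GSTM3 lie left of 0 in all 3 panels, and GSR lies near 0 after scaling.

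GSTM3 and GPX1 were also lower in the later of the SAR collections. GSTM3 had a lowest value of 25.3, a median of 57.134 and a highest value of 120.5 FPKM in SAR May 2016, against 76.3, 112.9 and 167.7 FPKM in SAR May 2014. Of the 8 samples of 2016, 7 were below the lowest sample of 2014, and the log2 difference was -1.14 ± 0.25 (limma adjusted p = 0.0129). GPX1 had a lowest value of 10849, a median of 16650 and a highest value of 25061 FPKM in 2016, against 19998, 28267 and 53863 FPKM in 2014, a log2 difference of -0.72 ± 0.22 (limma adjusted p = 0.0341). The GPX1 call was lost in 7 of the 16 fits that left out 1 library, namely SAR May 2014 replicates 2, 6 and 7 and SAR May 2016 replicates 3, 5, 6 and 7, with adjusted p up to 0.0723, while GSTM3 kept its call in all 16.

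GCLM had medians of 29.3 FPKM in SAR May 2016 and 39.1 FPKM in SAR May 2014, and its log2 difference was -0.35 ± 0.23 (limma adjusted p = 0.294). GSR had medians of 66.03 FPKM in SAR May 2016 and 55.4 FPKM in SAR May 2014, a log2 difference of 0.20 ± 0.23 (limma adjusted p = 0.560). Neither passed the threshold. Among all loci 17.2% were called between the SAR years and 1.16% were called lower in 2016, with the median locus at 0.32. After scaling 3.44% were called and 2.51% called lower, GPX1 was at -1.11 (adjusted p = 0.0454) and GSTM3 at -1.53 (adjusted p = 0.0184).

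Because the SAR years differed, BAR was also set against SAR May 2016 alone, a comparison added after the values were seen. None of the 4 members passed the threshold there. The log2 differences were -0.11 for GPX1 (adjusted p = 0.663), -0.57 for GSTM3 (adjusted p = 0.273), -0.24 for GCLM (adjusted p = 0.449) and 0.44 for GSR (adjusted p = 0.0804), and 237 of 11557 loci were called. With scaling, 12 loci were called and again none of the members, with GPX1 at -0.37, GSTM3 at -0.81, GCLM at -0.48 and GSR at 0.19. The calls between the bays were thus not made without the 8 SAR samples of May 2014. These fits kept only 8 SAR samples, so fewer samples and the year cannot be told apart in the lost calls.

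Red cell transcripts moved with GPX1, GSTM3 and GCLM. Of 38 red cell genes listed, 26 could be named in the table, and all 26 were above 0 in every sample. In BAR against SAR, 17 of the 26 were called lower and 0 higher, against 2.54% and 70.4% of all loci. After scaling 23 were called lower, against 5.65% of all loci. The median log2 differences of the list were -0.67 as deposited and -1.05 after scaling. Their summed level ranged from 8323 to 66150 FPKM in BAR (median 33510), against 26388 to 72842 FPKM in SAR (median 47259). DMTN, which encodes a membrane skeleton protein of red cells, differed by -1.21, and ALAS2, the first enzyme of heme synthesis in red cell precursors, by -0.84. In 2014 the summed red cell level ranged from 9194 to 46428 FPKM in BAR, against 43495 to 72842 FPKM in SAR. Between the SAR years 3 of 26 were called lower, 5 after scaling, against 1.16% and 2.51% of all loci. In whole blood, fewer cells of a type and less RNA per cell cannot be told apart.

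White cell markers were also set beside GSR in the comparison of the bays as deposited. Called higher in BAR were 4 of 4 named monocyte genes, among them CCR2, a chemokine receptor (0.84), and LYZ, lysozyme (0.54), 5 of 5 T cell, 3 of 8 neutrophil, 4 of 6 eosinophil and basophil, 3 of 4 cytotoxic and natural killer and 2 of 6 B cell genes, with 0 lower, against 70.4% of all loci higher. The summed neutrophil level ranged from 966.2 to 5799 FPKM in BAR (median 2197), against 1008 to 3394 FPKM in SAR (median 1781). After scaling none of these genes was called, and neither was GSR. The part of white cells in the GSR values was not tested.

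Across the 76 samples, the scaled log2 levels of GSTM3 and GCLM correlated with the mean log2 level of the red cell list at Pearson r of 0.91 for both genes, and that of GPX1 at 0.82. Within the 60 BAR samples r was 0.87 for GSTM3, 0.89 for GCLM and 0.76 for GPX1, and within the 16 SAR samples 0.89, 0.85 and 0.84. The r of GSR with the red cell list over the 76 samples was -0.03 after scaling but -0.35 as deposited. For the other members r as deposited was 0.68 for GPX1 and 0.85 for both GSTM3 and GCLM. These are descriptions over samples that share libraries, depth and, for 5 animals, the animal.

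With the red cell mean as a covariate after scaling, a fit added after the values were seen, the BAR minus SAR differences were -0.26 for GPX1 (adjusted p = 0.390), 0.11 for GSR (adjusted p = 0.730), -0.19 for GSTM3 (adjusted p = 0.671) and 0.03 for GCLM (adjusted p = 0.928). None of the members was called, and 27 of 11485 loci were. In 2014 the same fit gave -0.70 for GPX1, -0.25 for GSR, -0.55 for GSTM3 and 0.12 for GCLM, and between the SAR years -0.32, -0.04, -0.54 and 0.20, with 0 loci called in either. The red cell mean of 2014 ran from 4.38 to 6.78 in BAR and from 6.47 to 7.64 in SAR. Bay and red cell mean can thus hardly be told apart in that fit.

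**Figure D3:**
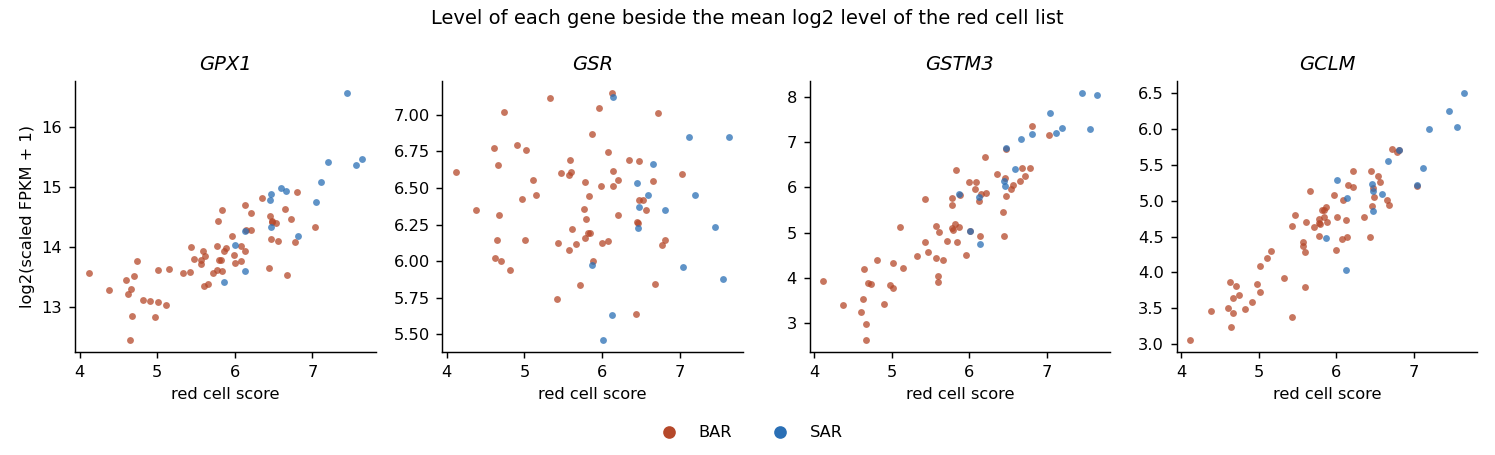
Scaled log2(FPKM + 1) of each gene (y axis) beside the mean scaled log2 level of the 26 red cell genes (x axis), 1 point per sample, BAR and SAR in separate colors. GSTM3 and GCLM rise along the red cell mean (r = 0.91 for both), GPX1 does so with more scatter (r = 0.82), and GSR shows no slope (r = -0.03).

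GPX1, GSTM3 and GCLM also varied together. The study had placed these 3 in the same group of co-expressed genes in the BAR samples, and GSR in another. The correlations between members below are thus not independent of that grouping. After scaling, each pair of the 3 correlated at r of 0.81 over 76 samples, and within BAR the values lay between 0.74 and 0.77. As deposited, the pairs of the 3 correlated at 0.67 to 0.69 over the 76 samples. GSR correlated with GPX1 at 0.15, with GSTM3 at -0.08 and with GCLM at -0.01 after scaling, and at -0.16, -0.45 and -0.24 as deposited. Among the lists, GSR correlated most with the neutrophil list (8 of 25 genes named, r = 0.64, and 0.74 as deposited), with 8 regulators of thiol defense and selenoprotein synthesis (0.57, and 0.76 as deposited) and with the NADPH supply genes PGLS and PGD of the pentose phosphate pathway (0.57, and 0.72 as deposited). Its correlation with the B cell list (6 of 16 named) was -0.51 after scaling and only -0.17 as deposited.

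The named loci most like each member, out of 2955, were ranked by Pearson r of scaled log2 levels over the 76 samples. For GSTM3 they were ISCA1 (0.94), which takes part in mitochondrial iron-sulfur cluster assembly, MPP1 (0.91), a membrane protein of red cells, PRDX2 (0.91), the main peroxiredoxin of red cells, CLIC2 (0.90) and H3F3A (0.90). For GCLM they were CA3 (0.90), a carbonic anhydrase, VDAC3 (0.90), a mitochondrial outer membrane channel, TRIM58 (0.89), a ubiquitin ligase of maturing red cells, MPP1 (0.89) and IFRD2 (0.89).

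GPX1 was most like MXD4 (0.92), a MYC antagonist, OAZ1 (0.91), the antizyme that limits polyamine synthesis, GPR146 (0.91), JOSD2 (0.91), a deubiquitinase, and UBAC1 (0.91). For GSR the closest were C1QL3 (0.77), EAF1 (0.76), a transcription elongation factor partner, GPR137B (0.76), IL6R (0.75), the interleukin 6 receptor, and E2F3 (0.74), a cell cycle transcription factor. After scaling, the likeness of GSR to its closest loci was thus lower than that of the other members. As deposited it was not, with r of 0.77 to 0.86 for the same 5 loci. The r as deposited was 0.81 to 0.85 for GPX1, 0.79 to 0.91 for GSTM3 and 0.81 to 0.83 for GCLM with theirs.

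The other genes of thiol and peroxide defense were compared as well. From a list of 78 genes of this kind, 24 besides the members could be named and passed the filter on low values. Between BAR and SAR, 15 of the 24 were called higher and 4 lower as deposited, against 70.4% and 2.54% of all loci, with a median log2 difference of 0.35, against 0.39 over all loci. After scaling 0 were higher and 5 lower, with a median of -0.08, against 5.65% of all loci lower.

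Among the genes that were lower in BAR, PRDX2, which reduces hydrogen peroxide in red cells, had a lowest value of 151.6, a median of 405.8 and a highest value of 895.5 FPKM, against 446.3, 694.6 and 1396 FPKM in SAR. Its log2 difference was -0.86 ± 0.18 (limma adjusted p = 7.38e-05). GLRX5, a mitochondrial glutaredoxin needed for iron-sulfur clusters and heme synthesis, differed by -0.78 ± 0.20 (limma adjusted p = 0.000601). HAGH, the glyoxalase that releases glutathione from its lactoyl conjugate, differed by -0.72 ± 0.19 (limma adjusted p = 0.00101), and CHAC2, which degrades glutathione, by -0.53 ± 0.15 (limma adjusted p = 0.00155).

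All of these 4 genes were called lower in BAR after scaling as well, at -1.31 for PRDX2, -1.23 for GLRX5, -1.17 for HAGH and -0.92 for CHAC2. Scaling added SOD3, the extracellular superoxide dismutase (-0.96). With the red cell mean as a covariate none of the 24 was called, but only 27 of all 11485 loci were.

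Genes called higher in BAR were closer to the shift of all loci. BACH1, a heme-sensing repressor of antioxidant genes, differed by 0.63 ± 0.12, GSTK1, a mitochondrial and peroxisomal transferase, by 0.60 ± 0.12, KEAP1, which targets NRF2 for degradation, by 0.58 ± 0.11, and the glutaredoxin GLRX by 0.55 ± 0.23. After scaling none of these was called over all years. In 2014, 12 of the 24 were called higher and 4 lower, against 70.1% and 2.58% of all loci. After scaling 1 was higher, BACH1 (0.42 ± 0.13, limma adjusted p = 0.0423), and 5 were lower, against 7.24% of all loci lower. Between the SAR years, BACH1 was higher in 2016 (0.75 ± 0.22, limma adjusted p = 0.0273) and CHAC2 lower (-0.60 ± 0.19, limma adjusted p = 0.0351). These were the only calls among the 24 between the SAR years, against 17.2% of all loci called. With 1 library left out, 1036 to 2494 of all loci were called, and among the 24 there were 0 to 4 calls. There were 0 without SAR May 2014 replicate 2 or SAR May 2016 replicate 8, 1 without SAR May 2014 replicate 4, 6, 7 or 8 or SAR May 2016 replicate 2, 3, 4, 5 or 6, and 4 without SAR May 2014 replicate 3 or SAR May 2016 replicate 1. After scaling CHAC2 was called lower in 2016 and BACH1 was not called.

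**Figure D4:**
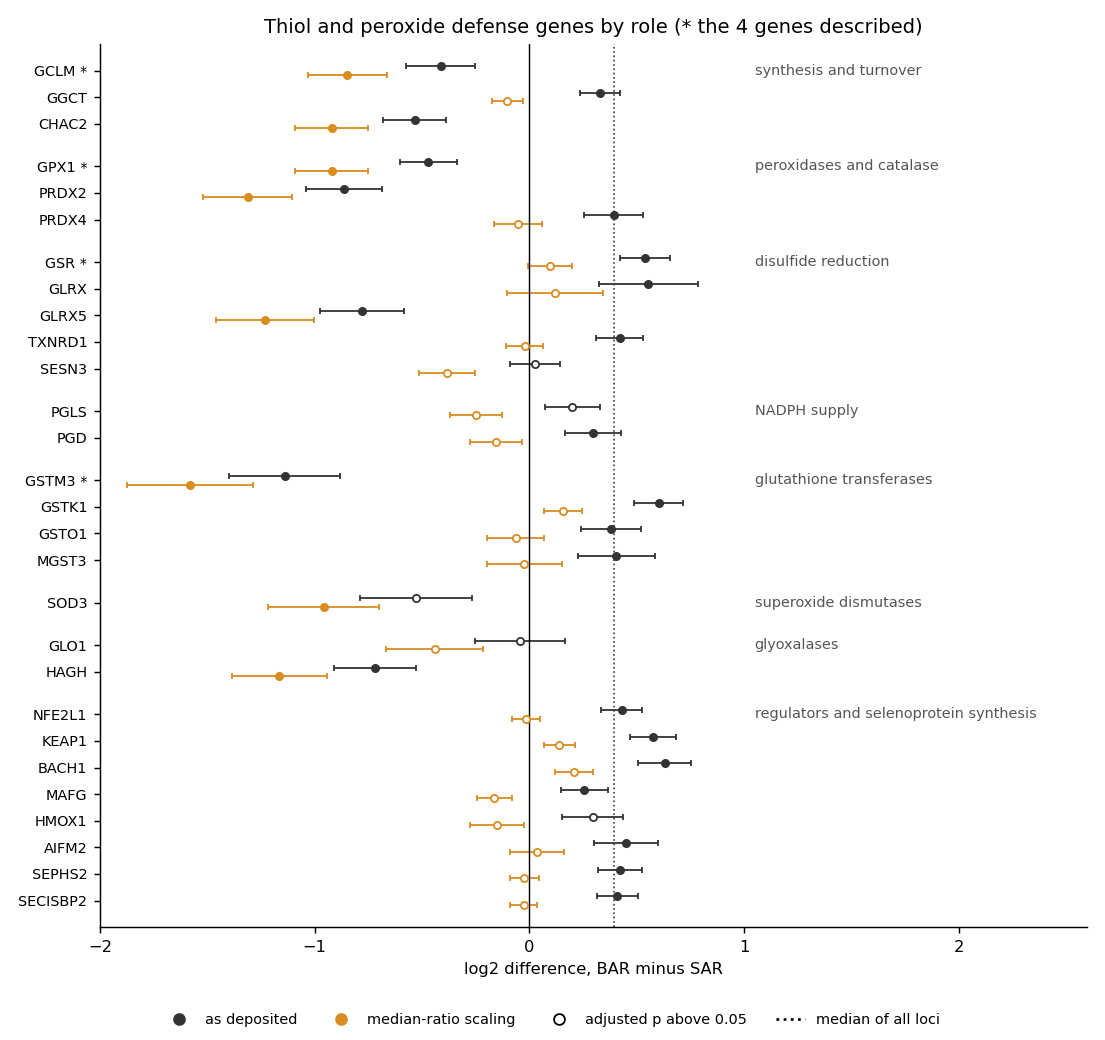
Log2 differences, BAR minus SAR, of the 4 members (marked by an asterisk) and 24 other thiol and peroxide defense genes by role, with bars of 1 SE, as deposited and after median-ratio scaling. Open points have an adjusted p above 0.05 and the dotted line marks the median of all loci, 0.39. GSTM3, PRDX2, GLRX5 and HAGH lie farthest to the left among genes called lower as deposited.

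Sampling in BAR over 5 years allowed comparisons between years at the site. None of the 4 members passed the threshold between any of the 6 pairs of years, and few other loci did. The share of loci called by limma was 0% for 2014 against 2013, for 2017 against 2013, for 2018 against 2013, for 2018 against 2014 and for 2018 against 2017, with 990, 1565, 590, 1669 and 782 loci at an unadjusted p under 0.05. It was 1.16% for 2017 against 2014. Scaling raised the count for 2017 against 2013 to 5.04%, again without a member.

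The smallest unadjusted p of a member among these pairs was that of GCLM in 2018 against 2017. GCLM had a lowest value of 9.29, a median of 19.4 and a highest value of 33.0 FPKM in July 2018, against 9.92, 26.6 and 51.5 FPKM in the 24 samples of 2017. The ranges overlapped, and the log2 difference was -0.48 ± 0.20 (limma adjusted p = 0.726). GSTM3 differed by -0.65 ± 0.39 in 2018 against 2013 (limma adjusted p = 0.997), with medians of 28.0 FPKM in 2018 and 41.9 FPKM in 2013. As deposited, all differences of GPX1 and GSR between BAR years lay between -0.16 and 0.13, and after scaling between -0.30 and 0.30.

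In scaled values of 2017 against 2013, 3 other genes of the list were called, namely MGST3, a microsomal transferase (-0.71), GSTO1, an omega-class transferase (-0.50), and BACH1 (0.34). Within 2017, samples of September were set against those of June. GCLM had a lowest value of 9.92, a median of 23.8 and a highest value of 48.99 FPKM in September, against 13.6, 32.1 and 51.5 FPKM in June, and 11 of 12 September samples were below the June median. Its log2 difference was -0.53 ± 0.19 (unadjusted p = 0.0104, limma adjusted p = 0.447). Of all loci 0% were called between these months by limma, with 905 at an unadjusted p under 0.05.

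The 5 BAR animals sampled on 2 dates show how stable each transcript was within an animal. GSR in the later and the earlier sample was 85.10 and 74.8 FPKM in animal 1, 114.0 and 104.1 in animal 2, 70.7 and 72.1 in animal 3, 103.6 and 98.8 in animal 4, and 78.7 and 82.2 in animal 5. The 2 samples thus differed by 0.18 log2 units or less, with a median of 0.07, against a median of 0.39 over all pairs of BAR samples. GSTM3 differed by a median of 0.27, against 0.98 over all pairs, but reached 1.74 in animal 3 (26.3 FPKM in September 2017 and 90.5 FPKM in June 2014). GPX1 and GCLM differed within animals by medians of 0.58 and 0.56, against 0.42 and 0.59 over all pairs. With 5 animals no test was made of these differences.

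Birth cohort was compared within BAR, animals born before the spill against those born after it. GSR had a lowest value of 57.132, a median of 97.97 and a highest value of 156.5 FPKM in 46 samples of the pre-spill cohort, against 52.7, 78.4 and 90.1 FPKM in 9 samples of the post-spill cohort. In 26 of the 46 pre-spill samples GSR was above the highest post-spill sample, and the log2 difference was 0.41 ± 0.13 (unadjusted p = 0.00244). It did not pass the threshold after adjustment (limma adjusted p = 0.0879, scaled 0.0975). GPX1 differed by 0.0016 ± 0.17, GSTM3 by -0.46 ± 0.35 and GCLM by -0.37 ± 0.21, none called.

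Of all loci 0.76% were called between the cohorts, and 2.81% after scaling. MGST3 was called higher in the pre-spill cohort (0.81 ± 0.21, limma adjusted p = 0.0446), and after scaling also HMOX1, the heme oxygenase (0.49), 1 and 2 of the 24 other genes. With the collection year as a covariate none of the 24 was called, and none without the filter. Of the post-spill samples 7 of 9 were collected in 2017, against 14 of 46 pre-spill samples. Cohort cannot be told apart from age here, as the pre-spill samples comprised 23 subadults and 23 adults and the post-spill samples 3 calves and 6 subadults. Markers of white cells differed in level as well. Of 6 named B cell genes, 1 was called lower in the pre-spill cohort as deposited and all 6 after scaling. The study had reported B cell genes in a group of co-expressed genes higher in the post-spill cohort of these samples. The B cell calls are thus not independent of that result. The neutrophil genes were summed to a median of 2404 FPKM in the pre-spill and 1739 FPKM in the post-spill cohort, none of the 8 called. The part of B cells and neutrophils in the GSR values was not tested.

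Pregnancy and its outcome were compared because reproductive failure had been recorded in BAR. In 21 samples of pregnant females, against 20 of non-pregnant females, the medians were 16449 and 15780 FPKM for GPX1, 86.5 and 96.59 for GSR, 28.2 and 37.4 for GSTM3, and 23.9 and 24.5 for GCLM. All ranges overlapped, and no member was called (limma adjusted p of 0.946 or more), with 0.00865% of loci called. These groups held 1 and 5 SAR samples. Failed pregnancies (13 samples) had medians of 16449 FPKM for GPX1, 86.5 for GSR, 28.3 for GSTM3 and 23.9 for GCLM, against 11458, 74.7, 21.0 and 17.2 FPKM in successful pregnancies (6 samples). The log2 differences were 0.35 ± 0.26, 0.19 ± 0.20, 0.58 ± 0.44 and 0.37 ± 0.29 (limma adjusted p of 0.706 or more). After scaling they were 0.11, -0.04, 0.33 and 0.15, and leaving out 1 of the successful pregnancies, 1 of which was from SAR, gave 0.26 to 0.90 for GSTM3 as deposited. The median of all loci was 0.21 higher in failed pregnancies. Of these loci 0% were called by limma, with 634 at an unadjusted p under 0.05.

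Clinical findings in BAR were compared in the same way. None of the members passed the threshold for inflammation, hepatobiliary findings, anemia, iron findings or lung score. The share of loci called by limma was 0% for all 5 findings. The smallest unadjusted p with inflammation was that of GSR, which had a lowest value of 62.0, a median of 114.8 and a highest value of 147.9 FPKM in 12 samples with inflammation, against 47.08, 85.01 and 156.5 FPKM in 48 without it. The groups overlapped fully, and the log2 difference was 0.28 ± 0.12 (unadjusted p = 0.0269, limma adjusted p = 0.760). GSTM3 differed by 0.29 ± 0.31.

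In anemia, GCLM had a lowest value of 14.3, a median of 34.6 and a highest value of 53.2 FPKM in 6 samples, against 9.29, 24.2 and 51.5 FPKM in 54 without it. In 5 of the 6 GCLM was above the median of the others, for a log2 difference of 0.53 ± 0.24 (unadjusted p = 0.0332, limma adjusted p = 0.999). The red cell list had a median log2 difference of 0.48 with anemia, and 24 of 26 differences were positive, none called. In iron findings, GSTM3 had a lowest value of 9.59, a median of 22.0 and a highest value of 59.5 FPKM in 6 samples of 5 animals, against 7.24, 37.0 and 155.4 FPKM in 54 without it. GSTM3 differed by -0.85 ± 0.40 (unadjusted p = 0.0368) and GCLM by -0.49 ± 0.25 (unadjusted p = 0.0481), both with a limma adjusted p of 0.844. All 6 samples with an iron finding were of females, while the 54 without it comprised 34 of females and 20 of males. The finding thus cannot be fully told apart from sex in these differences.

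The red cell list moved in the same direction with iron findings, at a median of -0.53 with 2 of 26 differences positive. Its summed level was 11789 to 61679 FPKM with iron findings, against 8323 to 66150 FPKM without. Its part in these values was not tested. Hepatobiliary findings (9 samples against 51) and a moderate or severe lung score (19 against 38) gave log2 differences of the members between -0.32 and 0.11. The loci at an unadjusted p under 0.05 numbered 712 for inflammation, 495 for hepatobiliary findings, 400 for anemia, 479 for iron findings and 877 for lung score.

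**Figure D5:**
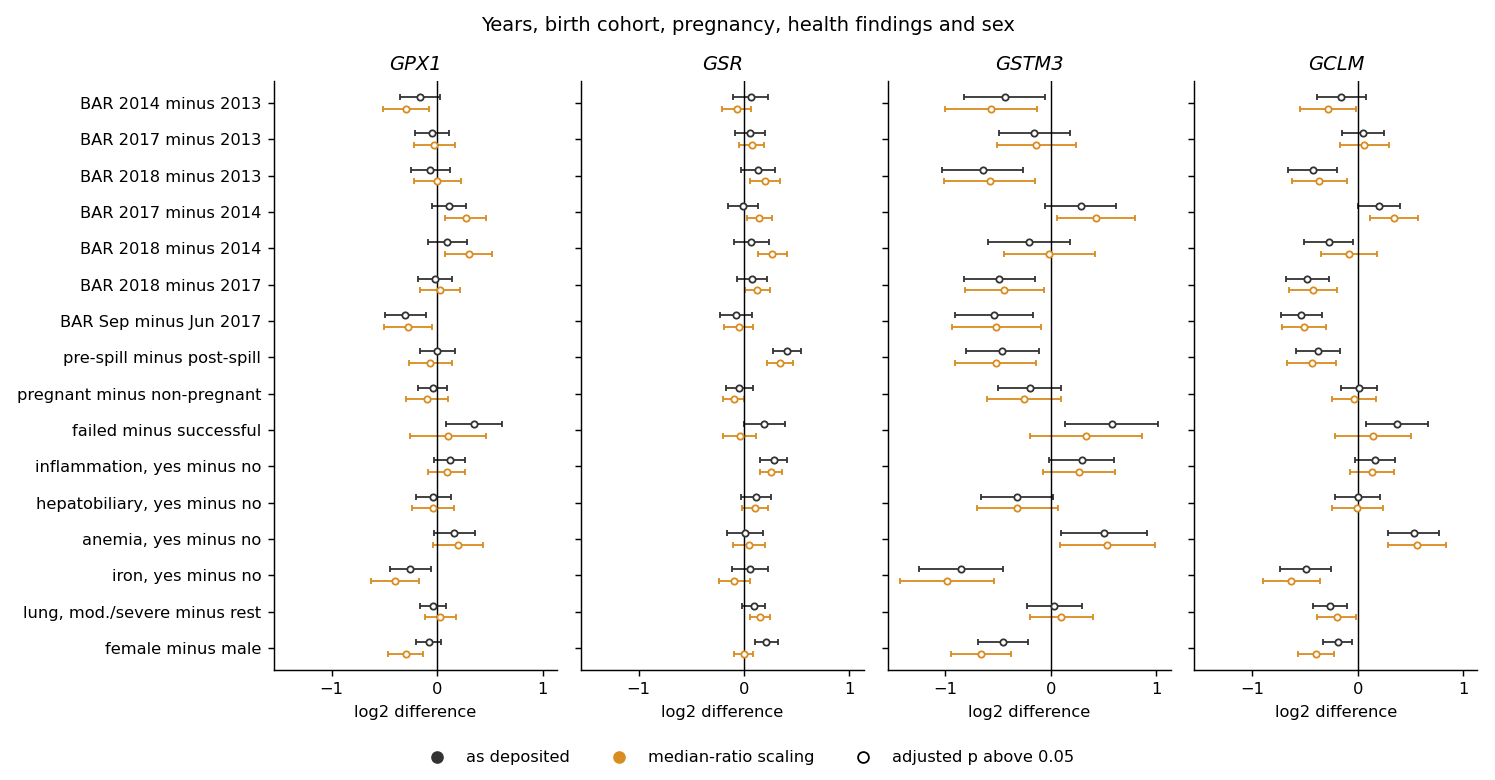
Log2 differences of the 4 genes for years and months within BAR, birth cohort, pregnancy, outcome, health findings in BAR and sex (points, with bars of 1 SE), as deposited and after median-ratio scaling. All points are open, meaning an adjusted p above 0.05. Pre-spill minus post-spill is the largest difference of GSR, 0.41.

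Females and males were compared over all 76 samples. GSTM3 had a median of 35.2 FPKM in 48 samples of females (7.24 to 150.1) and 52.4 FPKM in 28 of males (8.22 to 167.7), a log2 difference of -0.46 ± 0.24 (unadjusted p = 0.0589, limma adjusted p = 0.153). With the site as a covariate, added after the values were seen, it was -0.33. No member was called between the sexes, against 6.8% of all loci. Of the 24 other genes, GSTK1 (0.40), HMOX1 (0.39) and TXNRD1, a thioredoxin reductase (0.39), were called higher in females. None was after scaling, none with quantile normalization, and 1 of the 24 was without BAR July 2018 replicate 1, the library of lowest summed FPKM.

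The difference between bays was examined by sex too. In females BAR minus SAR was -1.16 for GSTM3 and 0.55 for GSR, both called, while GPX1 (-0.41, adjusted p = 0.0601) and GCLM (-0.19, adjusted p = 0.441) were not (40 samples against 8). In males it was -0.99 for GSTM3 and 0.47 for GSR, and none of the 4 members was called (20 samples against 8). Over all loci, 5699 of 11551 were called in females and 918 of 11342 in males. The interaction of site and sex itself was not past the threshold for any member, with GCLM at 0.43 ± 0.32 (limma adjusted p = 0.99997) the largest. Over all loci limma called 0 interactions, with 336 at an unadjusted p under 0.05.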

How the data were processed

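Whole blood of 76 samples was collected in PAXgene tubes and sequenced from directional libraries. The deposited values are FPKM per locus, which the authors made with Cufflinks 2.2.1 after trimming with Trimmomatic 0.33 and alignment to Tur_tru v1 with TopHat2 2.1.1 and Bowtie, tools named in the submitters' processing notes, and after masking hemoglobin sequences. A second sheet holds the same values and was not used.

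Site, sex and date came from the sample labels. Age class, birth cohort, pregnancy and findings came from the animal table of the study, joined by field ID and date. Samples without a stated status were left out of that comparison. Symbols came from the study's supplementary gene tables, which name 3144 loci, so lists hold only members named there. Those tables hold genes grouped by co-expression or called different in these samples, so the named genes of a list are not a neutral sample of it. The members and lists were chosen with earlier results of these data known. Genes named beyond the members are up to 8 of the pathway list per comparison, those with the largest difference past the threshold, up to 3 of a marker list, and the 5 loci with a descriptive symbol most correlated with each member. ALAS2 was chosen after its value was seen. From the pathway list, 1 gene is not reported here.

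Following the study, loci were kept where FPKM averaged 1 or more and was nonzero in a share of 0.5 or more of the libraries of a comparison. The moderated test of limma 3.58.1 (R 4.3.3) with a mean-dependent prior variance was applied to log2(FPKM + 1), with Benjamini-Hochberg adjustment over all loci at 0.05. Such fold changes understate those of low loci. P-values are two-sided. Cuffdiff, the test of the study, needs reads and was not repeated. Scripts were tested on simulated data, and Python 3.11.15, numpy 2.4.6, pandas 2.3.3 and matplotlib 3.10.9 were used for tables and plots. Alternatives were median-ratio scaling (size factors 0.486 to 1.50 over 10580 loci), quantile normalization, a pseudocount of 0.1, no filter, the animal as a replicate block, sex or collection year as a covariate, subsets of samples, and leaving out libraries.

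Read counts are not part of the deposited table. Relative depth, estimated from steps of low values at 1579 loci, ranged from 0.530 to 1.51 of the median library, and 90.9% of these values lay within 5% of a whole step. Summed FPKM of a library ranged from 425816 (BAR July 2018 replicate 1) to 1219800.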

Additional observations from a re-analysis of the deposited data

Results flagged for a closer look

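In 28 groups of members with 4 to 10 samples, the gap of the highest or lowest sample to the next was compared with the range of the group. Chance would mark about 5% of such groups if values were normally distributed. FPKM entered without a log, so this rate is only a rough guide. In all, 4 were marked, each at its highest sample. GPX1 was 53863 FPKM in SAR May 2014 replicate 2, far above the next sample of that collection at 29180 FPKM. GSR was 133.4 FPKM in SAR May 2016 replicate 8, where the next was 81.6 FPKM. GSTM3 was 120.5 FPKM in SAR May 2016 replicate 6, where the next was 68.4 FPKM. GSTM3 was 59.5 FPKM in BAR June 2017 replicate 7 among the samples with an iron finding, where the next was 26.07 FPKM. The 3 SAR samples were kept, and leaving out each changed the BAR against SAR calls of no member.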

How the results depend on the processing

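FPKM carry no depth, only named loci were described, the SAR samples come from 2 collections and the groups with anemia, iron findings or a successful pregnancy hold 6 samples each, which limits what the tests detect. Where no sentence below says otherwise, the cause of a change was not tested. Of 784 differences of members recomputed under alternatives, 699 kept direction and side of the threshold, 40 kept the direction but lost the call and 45 turned in sign, none of them past the threshold after turning.

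The number of members called in BAR against SAR was 4 as reported, where 8379 of all loci were called. That number was 2 with quantile normalization (827 loci called), 2 in females only (5699, fewer samples) and 0 in males only (918, fewer samples). It was 0 against SAR May 2016 alone and 0 against it with scaling (also fewer samples), and 0 with the red cell mean as a covariate. It was 4 in all fits that left out 1 SAR library. For 2014, 4 as reported, it was 2 with quantile normalization (1023 loci called), 0 with the red cell covariate (0 loci called) and 3 to 4 without a SAR library. Between the SAR years, 2 as reported, it was 1 with quantile normalization (121 loci called), 1 without the filter (1517), 0 with the red cell covariate (0) and 1 to 2 without a library (1036 to 2494). GCLM in 2014 also missed the threshold without the filter (adjusted p = 0.0600). With the animal as a replicate block the BAR against SAR differences were -0.46 for GPX1, 0.54 for GSR, -1.14 for GSTM3 and -0.41 for GCLM (consensus correlation 0.43), and the block changed no call of a member.

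Median-ratio scaling turned GSR in 2014 (-0.12), between the SAR years (-0.19), in BAR 2014 against 2013 (-0.070), in 2017 against 2014 (0.14), with pregnancy outcome (-0.042), with iron findings (-0.091) and with sex (-0.0039). It turned GPX1 in 2018 against 2013 (0.0029), in 2018 against 2017 (0.029), with birth cohort (-0.065) and with lung score (0.030), and GCLM with pregnancy (-0.038). With the red cell covariate GCLM turned for BAR against SAR (0.031), in 2014 (0.12) and between the SAR years (0.20), and GSR in 2014 (-0.25) and between the SAR years (-0.042).

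Quantile normalization turned GPX1 in 2014 against 2013 (0.093), 2017 against 2013 (0.16), 2018 against 2013 (0.23), 2018 against 2017 (0.071), September against June (0.022), hepatobiliary findings (0.065), anemia (-0.11) and lung score (0.020). It turned GSR in 2017 against 2014 (0.16), pregnancy outcome (-0.058) and iron findings (-0.065), and GCLM with pregnancy (-0.034) and hepatobiliary findings (0.00047). The animal block turned GPX1 in 2018 against 2013 (0.0093) and 2018 against 2017 (0.039). Without the library of lowest summed FPKM, GPX1 turned in 2018 against 2013 (0.00036), 2018 against 2017 (0.045) and lung score (0.0023), and GSR with anemia (-0.0068). Other turns were GPX1 by birth cohort with year as a covariate (-0.0028), GPX1 (0.031) and GSTM3 (0.026) by pregnancy in BAR females, and GSR by iron findings with sex as a covariate (-0.0072). Leaving out 1 sample with the finding gave GSR differences of -0.067 to 0.078 for anemia and -0.057 to 0.18 for iron findings.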
